A study of Mus musculus with 6 samples.

Results

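The genes described here encode the cytosolic sensors of foreign and double-stranded RNA and the adaptor through which some of them signal. They are Ddx58 (RIG-I), Ifih1 (MDA5), Dhx58 (LGP2), Zbp1, Eif2ak2 (PKR), Adar (ADAR1) and Mavs. The 7 members were chosen by gene symbol among the 19938 genes that had an array probe set with exactly 1 symbol. Where a gene had several such sets, the rule took the one with the highest mean signal over all 6 arrays. That mean signal was thus the measured value that sets were selected on, but each member had 1 set, so no choice between sets was made.

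Mouse bone marrow was profiled with 6 single-colour Affymetrix arrays, 3 from wild type and 3 from diabetic mice, all male and 10 weeks old. The labels name a BKS.Cg stock with the leptin receptor allele Leprdb for both groups, marked +/+ for wild type and -/- for diabetic animals. The labels do not say whether wild type animals carried a copy of the allele, or whether an array held 1 animal or a pool. The p-values therefore measure the spread between these samples, which may be technical. Marrow was flushed from the shafts of femurs and tibiae, received no treatment and, as far as the labels say, no sorting.

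RNA sensors are the part of innate immunity that works inside almost every cell. RIG-I and MDA5 are helicases that bind double-stranded RNA and then engage MAVS on the mitochondrial surface, which leads through kinases such as TBK1 to the transcription factors IRF3 and IRF7 and to type I interferon. Interferon in turn raises the genes of most sensors through a transcription factor complex with STAT2 and IRF9 that binds a DNA element, the interferon-stimulated response element (ISRE). In marrow, interferon is best known for acting on blood stem cells, macrophages and dendritic cells.

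Because interferon acts on many such genes through the ISRE, the sequences at the members' transcription starts were searched for it. RefSeq promoter sequences on build GRCm38.p6, 300 bases each from 250 before to 50 after an annotated start, matched 5 of the 7 members by symbol: Ddx58, Ifih1, Eif2ak2, Adar and Mavs. The ISRE core was searched as GAAA, any 2 bases and GAAA, the shorter core of the IRF factors as AANNGAAA, which the ISRE core contains, and the interferon gamma element (GAS) as TTCNNNGAA, each on both strands. Of 32851 such promoters in the table, 3.44% held the ISRE core, 23.9% the IRF core and 8.30% the GAS element. Counted by gene, with a match at any start, the shares were 3.99%, 26.7% and 9.55% of 27025 genes. Stretches of 30 bases around the matches in Ddx58, Ifih1, Eif2ak2 and Adar follow, 5′ to 3′ along the gene's strand, with the ISRE or IRF core matches in capitals.
Ddx58 upstream match, chr4:40239866-40239895, minus strand: tctaggttcagAAACGAAActggatccccg
Ddx58 match at the start, chr4:40239804-40239833, minus strand: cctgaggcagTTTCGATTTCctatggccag
Ifih1, chr2:62646206-62646235, minus strand: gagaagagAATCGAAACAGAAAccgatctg
Eif2ak2, chr17:78882535-78882564, minus strand: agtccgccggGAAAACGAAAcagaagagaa
Adar, start 3, chr3:89730736-89730765, plus strand: ccttttcaaggAAACGAAAgtgaactctgg

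The ISRE core was present in 3 of these 5 members, Ddx58, Ifih1 and Eif2ak2, between 3 and 42 bases after the annotated start. In Ddx58 it lay on the opposite strand, and a separate IRF core lay on the gene's own strand at positions -59 to -52 from the start. Adar had 3 annotated starts, of which start 3 held 1 IRF core and 1 GAS element, overlapping by 2 bases, and the other 2 starts held none of the 3 motifs. Eif2ak2 also held a GAS element, at positions -178 to -170 from its start. Adar is known to use an interferon-responsive start for its long protein form and other starts for its short form. The Mavs promoter held none of the 3 motifs in its 300 bases, and its last 100 bases before the start are shown as an example without a match. The same search found none of the 3 motifs at the 1 start of Irf7 or the 2 starts of Irf9, interferon-related genes described further on, and an ISRE core in Stat2 at positions -222 to -213.
Mavs, chr2:131233963-131234062, plus strand: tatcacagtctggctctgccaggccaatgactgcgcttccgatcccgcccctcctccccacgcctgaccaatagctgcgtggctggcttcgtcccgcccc
A match describes letters only and was not tied to any binding measurement here.

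Signals are on the log2 scale after robust multi-array averaging (RMA), which sets the distributions of the 6 arrays nearly equal, with array medians from 7.67 to 7.73. A difference of 1 is a doubling. Levels of different genes come from different probes and are not set against each other. Genes with a mean of at least 7.50 over the arrays were tested, 12029 in all, with limma and Benjamini-Hochberg adjustment over all of them, and a gene was called at an adjusted p under 0.05. All 7 members lay above that level in both groups. Defining markers of marrow were present: the 12 neutrophil genes tested averaged from 13.09 to 13.31 and the 8 erythroid genes from 12.21 to 12.71 on the 6 arrays. The Lepr probe set had 5.68 to 5.95 in wild type and 5.65 to 5.72 in diabetic marrow, with overlapping groups. The db change is known to alter the splicing of one receptor form, which this gene-level value need not show.

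The comparison set diabetic against wild type marrow. All 7 members had a lower mean in diabetic marrow, and 3 of them, Zbp1, Dhx58 and Adar, fell past the threshold. Of all genes tested, 0.432% passed in either direction and 0.333% passed as lower. For 6 of the 7, every diabetic array lay below every wild type array, and Mavs was the exception. Among all genes tested, 12.4% had groups apart in either direction and 5.39% with diabetic arrays lower. The same 6 members had an unadjusted p under 0.05 in limma, against 7.18% of all genes in either direction and 3.2% as lower. The median log2 change was -0.70 over the 7 members and 0.00 over all genes tested. The members were picked with earlier results of these data known, so these counts describe them and carry no test of the group.

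**Figure D1:**
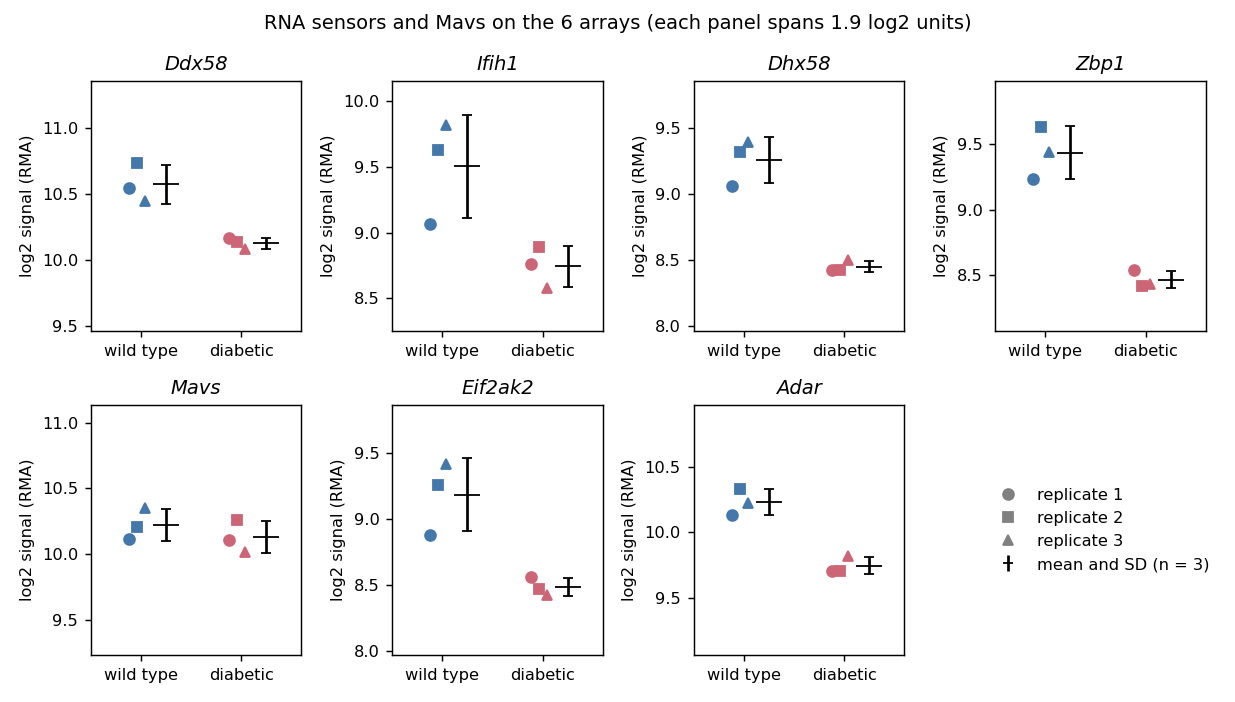
Log2 signal of each of the 7 genes on the 6 arrays, one panel per gene, with wild type in blue, diabetic in red, a marker shape per replicate number, and bars for the mean and SD of 3 arrays. Every diabetic point lies below every wild type point for 6 genes, and the points of Mavs overlap.

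The RIG-I-like receptors come first because they are the helicases that read RNA for MAVS. Ddx58 encodes RIG-I, which prefers short double-stranded RNA with a 5′ triphosphate. On wild type arrays 1, 2 and 3 its log2 signal read 10.55, 10.74 and 10.44, against 10.16, 10.14 and 10.08 for diabetic arrays 1, 2 and 3. The groups were 0.28 apart at their nearest values. The log2 change was -0.45 ± 0.08 (SE, n = 3 per group), or 1.37-fold lower, with an adjusted p of 0.102 in limma, so Ddx58 missed the threshold. Wild type replicate 3 was the lowest of its group, and without it the change was -0.52 with an adjusted p of 0.0358 in limma. Ddx58 passed in 1 of the 6 fits that left out 1 array, with adjusted p up to 0.411 over those fits in limma.

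Ifih1 encodes MDA5, which binds long double-stranded RNA. The wild type arrays gave log2 signals of 9.07, 9.63 and 9.82, and the diabetic arrays gave 8.76, 8.89 and 8.58. The groups did not overlap, but wild type replicate 1 lay closer to the diabetic arrays than to the other 2 of its own group. Its SD of 0.391 for wild type and 0.155 for diabetic arrays (n = 3 each) was the widest of the 7 genes in either group. The change of -0.76 ± 0.18 (SE), 1.69-fold lower, had an adjusted p of 0.277 in limma and missed the threshold. Without wild type replicate 1 it was -0.98 with an adjusted p of 0.0113 in limma, and without wild type replicate 3 it was -0.60. Of the 6 fits that left out 1 array, Ifih1 passed in 1, and the adjusted p reached 0.869 in limma.

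Dhx58 encodes LGP2, which shares the helicase of the other receptors but lacks the domains that contact MAVS, and tunes what they do. Log2 signals of LGP2 transcript were 9.06, 9.32 and 9.39 in wild type and 8.42, 8.43 and 8.50 in diabetic marrow. The 3 diabetic arrays lay within 0.075 of each other, and the nearest wild type array was 0.57 above them. Dhx58 fell by 0.81 ± 0.09 (log2 change with SE, 3 arrays per group), to 57.0% of the wild type level (limma, adjusted p = 0.0170). The call was lost without wild type replicate 2 (adjusted p = 0.0973) and without diabetic replicate 1, 2 or 3 (adjusted p = 0.130, 0.0997 and 0.0730 in limma). The change kept between -0.91 and -0.74 over all 6 fits that left out 1 array.

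Mavs encodes the adaptor of RIG-I and MDA5. Wild type arrays had log2 signals of 10.11, 10.20 and 10.35 for it, and diabetic arrays had 10.11, 10.26 and 10.02. The groups overlapped, and diabetic replicate 2 was above wild type replicates 1 and 2. The change was -0.10 ± 0.09 (SE) and its adjusted p was 0.939 in limma. Its 95% interval, from -0.30 to 0.11, does not show that the 2 groups had the same level. The interval of Dhx58 ran from -1.02 to -0.60, and that of Ddx58 from -0.64 to -0.26. The difference between the change of a receptor and that of Mavs was not tested.

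**Figure D2:**
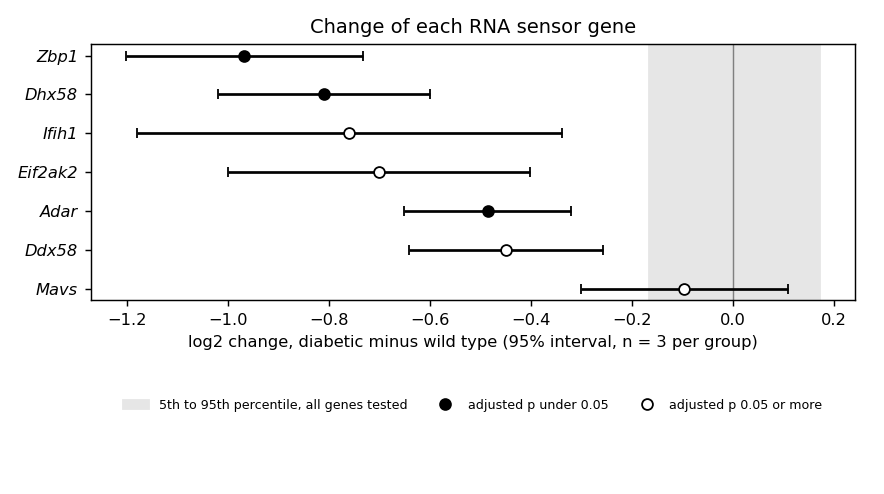
Log2 change of each gene, diabetic minus wild type, with its 95% interval from limma (n = 3 arrays per group), with filled points for genes past the adjusted threshold. The grey band covers the 5th to 95th percentile of all genes tested, from -0.17 to 0.17, and only the point of Mavs lies within it.

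Sensors that do not signal through MAVS were lower as well. Zbp1 encodes a protein that binds left-handed Z-form RNA and DNA and can start necroptosis through RIPK3. Its wild type arrays had log2 signals of 9.23, 9.63 and 9.44, against 8.54, 8.42 and 8.43 in diabetic marrow. All 3 diabetic arrays lay at least 0.69 below the lowest wild type array, the widest gap of the 7 genes. Zbp1 fell by 0.97 ± 0.10 (log2, SE), to 51.1% of the wild type level (limma, adjusted p = 0.0142). The call was lost without diabetic replicate 1, 2 or 3 (adjusted p = 0.0773, 0.0973 and 0.0730 in limma), with little movement of the change itself.

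Eif2ak2 encodes PKR, a kinase that is switched on by double-stranded RNA and halts translation by phosphorylating eIF2 alpha. The log2 signals were 8.88, 9.26 and 9.42 in wild type and 8.56, 8.47 and 8.42 in diabetic marrow. The groups did not overlap, and wild type replicate 1 was again the lowest of its group. The change of -0.70 ± 0.13 (SE, n = 3 per group), 1.63-fold lower, had an adjusted p of 0.102 in limma and missed the threshold. Without wild type replicate 1 the change was -0.85 with an adjusted p of 0.00733 in limma. Only 1 of the 6 fits lacking an array passed for Eif2ak2, with adjusted p up to 0.472 in limma.

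Adar encodes the enzyme that edits adenosine to inosine in double-stranded RNA, and its editing is known to keep a cell's own RNA from being read by MDA5, PKR and ZBP1. Its log2 signal was 10.14, 10.33 and 10.23 in wild type and 9.71, 9.71 and 9.82 in diabetic marrow. The groups were 0.32 apart. Adar fell by 0.49 ± 0.07 (log2, SE), to 71.4% of the wild type level (limma, adjusted p = 0.0389). Leaving out wild type replicate 2 or 3 ended the call (adjusted p = 0.208 and 0.0545), as did leaving out diabetic replicate 1, 2 or 3 (adjusted p = 0.252, 0.165 and 0.108 in limma). Over all 6 fits that left out 1 array, the change ran from -0.53 to -0.43. The deposited value is 1 number for the gene, so the long and short forms cannot be told apart.

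The wild type arrays varied more than the diabetic arrays for 6 of the 7 genes, with Mavs as the exception. The SD was larger in wild type for 57.1% of all genes tested, so the members' share is given as a description. Wild type replicate 1 was the lowest wild type array for 6 of the 7 genes, and for Ddx58 it was replicate 3. The mean deviation of the 6 genes other than Mavs from their own means over the 6 arrays was 0.14 on wild type replicate 1, 0.47 on replicate 2 and 0.44 on replicate 3. On the diabetic arrays it was -0.32, -0.34 and -0.38. Mavs deviated by -0.06, 0.03 and 0.18 in wild type and by -0.07, 0.08 and -0.16 in diabetic marrow, with mixed signs in both groups.

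**Figure D3:**
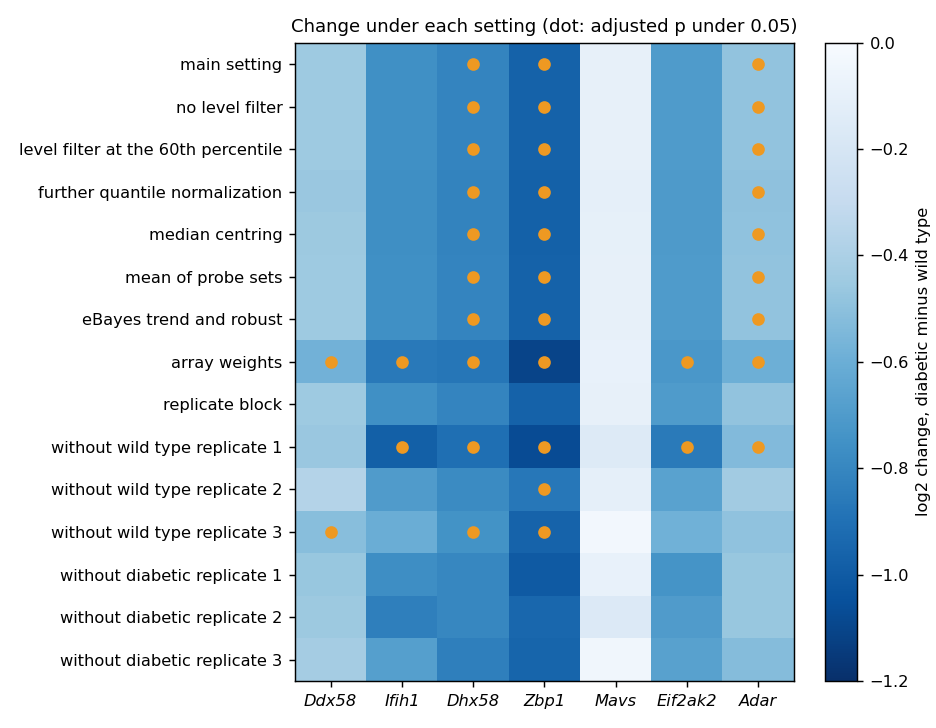
Log2 change of each gene, diabetic minus wild type, as colour for the main setting and 14 alternatives, with a dot where the adjusted p was under 0.05. All cells are below 0, the dots of Dhx58, Zbp1 and Adar are absent with the replicate block and without any one diabetic array, and Mavs has no dot.

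Marker lists of other marrow cells were read on the same arrays, since an unsorted sample cannot tell fewer cells of a type from less RNA per cell. Of 13 resident macrophage genes, 11 were lower and 1, Mertk, passed the threshold, with a median log2 change of -0.34 and a list mean from 9.46 to 9.66 in wild type and 9.27 to 9.39 in diabetic marrow. Mertk, a receptor for the clearance of dead cells, fell by 0.47 ± 0.07 (log2, SE; limma, adjusted p = 0.0362). Its call was lost in each of the 6 fits that left out 1 array, with adjusted p from 0.0520 to 0.242 in limma. At an unadjusted p under 0.05 in limma there were 9 of the 13, 8 of them lower, against 7.18% of all genes tested. The groups did not overlap for 8 of the 13, against 12.4% of all genes. Among them were the complement genes C1qb, C1qc and C1qa at -0.62, -0.35 and -0.32, and Axl, a receptor related to Mertk, at -0.53. The surface proteins Siglec1 and Mrc1 were both at -0.34. None of these 6 passed in limma with all arrays or with any 1 left out. Slc40a1, Vcam1, Cd5l and Spic, also lower, were at -0.04, -0.13, -0.17 and -0.44, with overlapping groups. The 2 higher genes were Cd163 at 0.34, with separate groups, and Adgre1 at 0.27, and neither passed. The adjusted p of Cd163, 0.0638 in limma, was the lowest of the list after that of Mertk. Cd163 passed with trend and robust eBayes (adjusted p = 0.0491 in limma) and with array weights. With array weights C1qa, C1qb, C1qc, Axl, Siglec1 and Mrc1 passed as well, among 1878 genes in all. Of 7 plasmacytoid dendritic cell genes tested, 6 were lower and none passed in limma, with 3 at an unadjusted p under 0.05 and a median change of -0.21. Their list mean ran from 9.69 to 9.84 in wild type, against 9.53 to 9.66 for diabetic arrays. The 3 were Cox6a2 at -0.34, Bst2, which is also known to be induced by interferon, at -0.27 and Tcf4, a transcription factor that specifies these cells, at -0.21, all with separate groups. Siglech, a defining surface marker, was at -0.07.

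B cell precursor genes were lower in 9 of 9 tested, with 0 past the threshold in limma and 1 at an unadjusted p under 0.05, but their groups overlapped. Their mean signal was 11.39, 11.12 and 10.28 for wild type replicates 1 to 3 and 10.61, 10.73 and 10.35 for diabetic replicates 1 to 3. Wild type replicate 1, the lowest of its group for most sensors, was thus the highest for B cell precursors. Monocyte genes were higher in 6 of 7 tested, with 0 past the threshold in limma and 2 at an unadjusted p under 0.05, and a list mean from 10.99 to 11.15 in wild type and 11.12 to 11.31 in diabetic marrow. No marker list other than resident macrophages and plasmacytoid dendritic cells had separate groups with lower values in diabetic marrow, among the 8 lists read. The part of these cells in the sensor values was not tested.

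**Figure D4:**
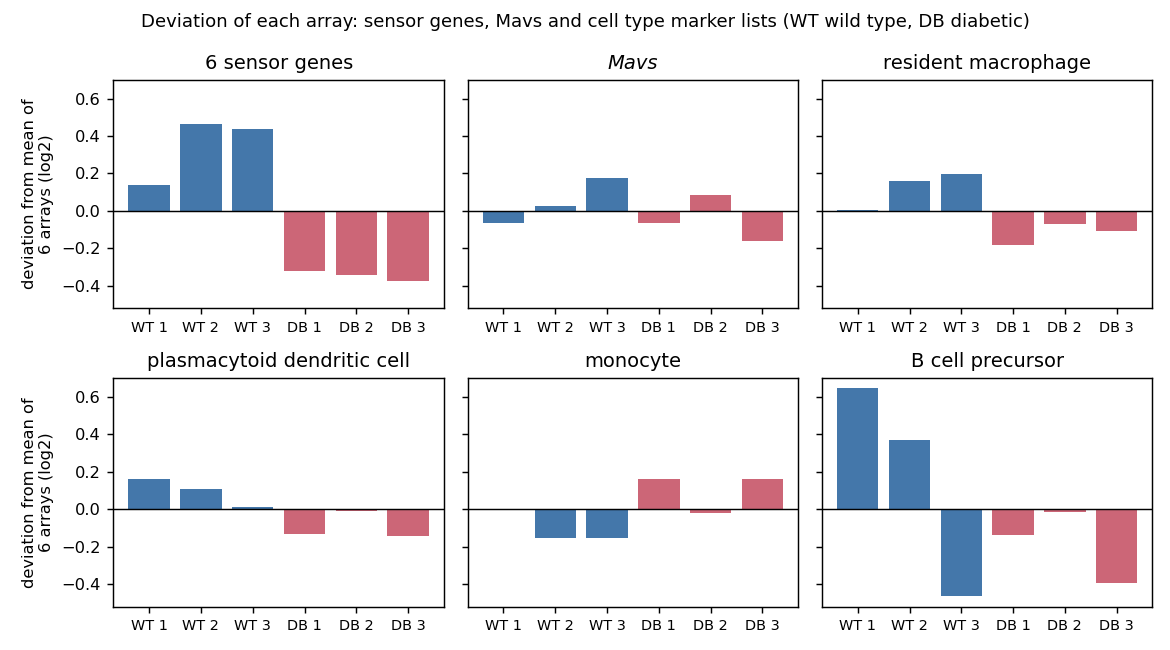
Deviation of each array from the mean of the 6 arrays on the log2 scale, for the mean of the 6 genes other than Mavs, for Mavs, and for the mean of 4 marker lists, with wild type in blue and diabetic in red. The 6 sensor genes run from 0.14 to 0.47 in wild type and from -0.38 to -0.32 in diabetic marrow, and the marker lists have smaller or overlapping group differences.

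Genes around the receptors were then read from lists that follow the pathway. The list of RIG-I and MDA5 regulators holds ubiquitin ligases, phosphatases and binding partners. Of its 18 genes, 8 were lower and 10 higher, with a median log2 change of 0.02. None passed in limma, and 2 had an unadjusted p under 0.05. Trim25, a ligase that activates RIG-I and is itself induced by interferon, was at 10.18, 10.34 and 10.09 in wild type and 9.87, 9.88 and 9.95 in diabetic marrow, a change of -0.30 ± 0.08 (SE) with an adjusted p of 0.317. Rnf125, a ligase that marks RIG-I and MAVS for degradation, was at 9.29, 9.60 and 9.64 in wild type and at 9.82 on all 3 diabetic arrays, a change of 0.31 ± 0.09 with an adjusted p of 0.519 in limma. Neither passed, although their groups did not overlap.

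Partners and regulators of MAVS, such as the TRAF proteins and the mitofusins, had 18 of 20 genes tested, with Traf3 and Ripk1 lacking a set with 1 symbol in the table used. Of the 18, 7 were lower and 11 higher, the changes ran from -0.09 to 0.17, and none passed in limma, with 1 at an unadjusted p under 0.05. The largest were those of Mfn1, a protein of mitochondrial fusion, at 0.17 ± 0.08 and Itch, a ligase that degrades MAVS, at 0.15 ± 0.06 (SE).

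Of 11 tested kinases and transcription factors downstream of MAVS, 3 were lower and 8 higher. Past the threshold were 1 as lower and 0 as higher, with 2 at an unadjusted p under 0.05 in limma. Irf7, which drives type I interferon genes and is itself raised by interferon, was at 10.54, 11.17 and 11.06 in wild type and at 9.82, 9.62 and 9.44 in diabetic marrow. It fell by 1.30 ± 0.17 (log2, SE; limma, adjusted p = 0.0260). The call was lost without wild type replicate 2 and without each diabetic replicate, with adjusted p from 0.117 to 0.132 in limma. The other 10 ran within -0.06 to 0.21. Ikbke and Ikbkb, both kinases of this branch, were at 0.21 ± 0.09 and 0.14 ± 0.08.

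The interferons themselves are the output of the pathway. Of 20 listed type I and III interferon genes, 15 had a set with 1 symbol and 12 of these, Ifnb1 among them, lay below the level filter. The 3 tested had changes up to 0.09 for Ifnz, with Ifnl2 at 0.01, and overlapping groups, and none passed in limma or had an unadjusted p under 0.05. None of the 15 passed when genes of every level were tested. Interferon alpha genes are close copies of each other and can share signal.

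Of 9 tested factors that carry the interferon signal to the ISRE, 5 were lower and 4 higher. Past the threshold were 2, both lower, with 3 at an unadjusted p under 0.05 in limma. Irf9 was at 10.35, 10.68 and 10.52 in wild type and 9.66, 9.77 and 9.78 in diabetic marrow, and it fell by 0.78 ± 0.09 with an adjusted p of 0.0184 in limma. Stat2, its partner, was at 9.89, 10.06 and 9.87 in wild type and 9.41, 9.41 and 9.52 in diabetic marrow, and it fell by 0.49 ± 0.07 with an adjusted p of 0.0389 in limma. The call on Irf9 was lost without wild type replicate 2 (adjusted p = 0.0750) and without each diabetic replicate (from 0.0830 to 0.136). That on Stat2 ended when wild type replicate 1 or 2 was left out (0.0675 and 0.185), and likewise for each diabetic replicate (from 0.108 to 0.252, all in limma). Irf1 and Irf2, which bind the same element, were at -0.27 ± 0.11 and 0.13 ± 0.09 and did not pass. With its probe sets averaged, Irf1 was at -0.13 (limma, adjusted p = 0.885). The receptor chains and kinases of the list stayed within -0.03 to 0.02.

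**Figure D5:**
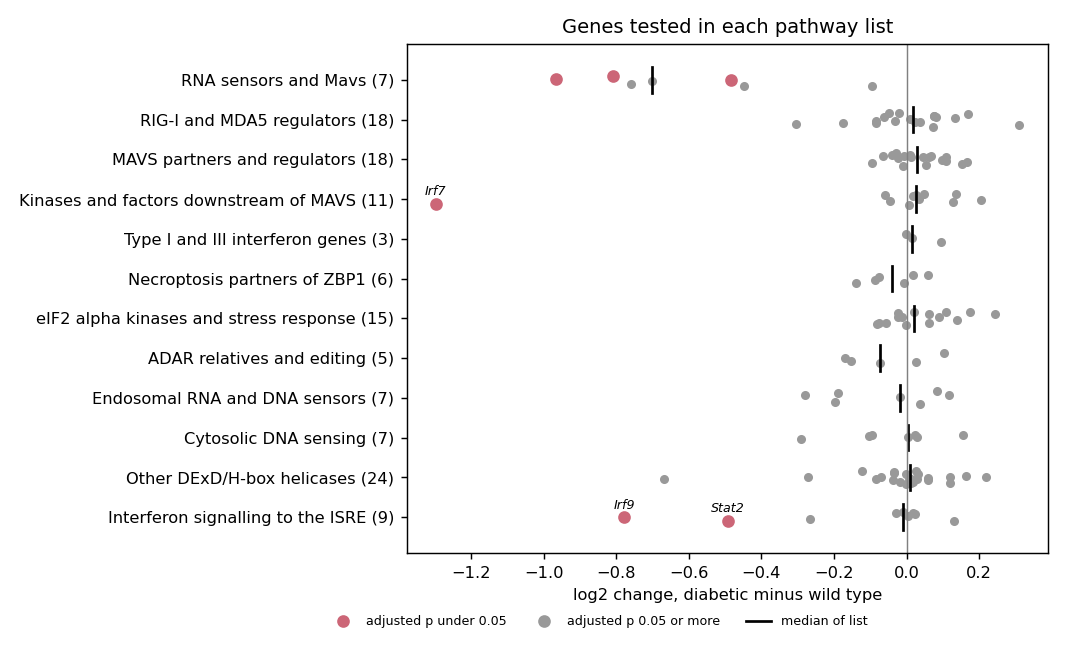
Log2 change, diabetic minus wild type, of each gene tested in 11 pathway lists and of the RNA sensors with Mavs, with the number of genes in brackets, a bar at the list's median and red points for genes past the adjusted threshold. Outside the sensors the red points are Irf7, Irf9 and Stat2, and the medians of the 11 lists lie between -0.07 and 0.03.

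The branches that the non-MAVS sensors feed were read next. Of 6 tested necroptosis genes around ZBP1, 4 were lower and none passed in limma or had an unadjusted p under 0.05, with Casp8, the protease that restrains necroptosis, at -0.14 ± 0.07 and Ripk3, the kinase that ZBP1 binds, at -0.09 ± 0.07. Of 15 genes of the eIF2 alpha kinases and the stress response behind PKR, 7 were lower and 8 higher and none passed in limma or had an unadjusted p under 0.05. Asns and Atf3, targets of that response, were at 0.24 ± 0.24 and 0.18 ± 0.19, with errors as large as the changes. Of 5 tested relatives of Adar and other editing genes, 3 were lower and none passed in limma or had an unadjusted p under 0.05. Apobec3 and Apobec1, cytidine deaminases, were at -0.17 ± 0.08 and -0.15 ± 0.11. Averaging the probe sets of Apobec3 gave -0.05.

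Sensors of other kinds showed no call among the genes tested. Among 7 endosomal sensor genes tested, Tlr9, a receptor for DNA, was at -0.28 ± 0.12, Unc93b1, which delivers such receptors to endosomes, at -0.20 ± 0.10 and Tlr7, a receptor for single-stranded RNA, at -0.19 ± 0.07 (SE), and 2 of the 7 had an unadjusted p under 0.05 in limma. Tlr3, the endosomal receptor for double-stranded RNA, lay below the level filter. Among 7 genes of cytosolic DNA sensing, the largest change was that of Trex1, a nuclease that clears cytosolic DNA, at -0.29 ± 0.07 (limma, adjusted p = 0.233), followed by Lrrfip1 at 0.16 ± 0.07. The list had 1 gene at an unadjusted p under 0.05 in limma. Cgas lay below the level filter and Ifi204 lacked a set with 1 symbol, so neither was tested.

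The helicase family itself gave a further view, since RIG-I, MDA5 and LGP2 belong to the large DExD/H-box group. Of 24 other members tested, 11 were lower and 13 higher, the median was 0.01, and none passed in limma, with 4 at an unadjusted p under 0.05. The largest change was that of Ddx60, an interferon-induced helicase of antiviral defence, which was at 8.48, 8.96 and 8.53 in wild type and 8.07, 8.03 and 7.85 in diabetic marrow. Its change of -0.67 ± 0.13 (SE, n = 3 per group) had an adjusted p of 0.129 in limma, and its groups did not overlap. Ddx24 followed at -0.27 ± 0.06.

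The genes whose values over the 6 arrays lay nearest to those of the 3 called members were found by the root mean square difference of log2 values centred on each gene's mean. Nearest to Dhx58 were Gbp7, Irf9 and Cxcl10, at differences of 0.074, 0.077 and 0.081, against a median of 0.43 over all other genes tested. Nearest to Zbp1 were Irgm1, Oasl1 and Cxcl9, at 0.089, 0.090 and 0.092, against a median of 0.51. Nearest to Adar were Stat2, Epsti1 and Cmpk2, at 0.034, 0.050 and 0.058, against a median of 0.27. The 6 arrays share the difference between groups, so this likeness describes mainly that difference.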

How the data were processed

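The authors deposited log2 values for each probe set. Per the submitters' processing notes these came from Expression Console (Affymetrix) with RMA, whose version and genome build no label names. RMA removes any shift common to a whole array.

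The deposited file held 35556 probe sets, of which 21789 had 1 symbol in the platform annotation, 1621 several and 12146 none there. The level filter was the 40th percentile of sets with a symbol. Diabetic and wild type arrays were compared in limma 3.58.1 (lmFit, eBayes; R 4.3.3), with no covariate and Benjamini-Hochberg adjustment over all genes tested. The fit was tested on simulated data. Precision is limited by the 3 arrays in each group. No pair of arrays held identical values.

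Members and lists were chosen with earlier results of these data known. Named were the 7 members, list genes past the threshold, the 2 largest other changes per list and the 3 nearest genes per called member. Marker genes, Tlr7, and Tlr3, Ifnb1, Traf3, Ripk1, Cgas and Ifi204 as gaps in the lists, were named outside that rule. Same-numbered arrays correlated at 0.33, -0.04 and -0.06 in their deviations, so the numbers were not taken as pairs. Motifs were searched in RefSeq promoters, and figures drawn with matplotlib 3.10.9 in Python 3.11.15. Alternatives were other filters, median centring, quantile normalization, averaged probe sets, other eBayes settings, array weights, a replicate block and leaving out each array. An item of the genotype label is not reported here.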

Additional observations from a re-analysis of the deposited data

How the results depend on the processing

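All 7 members stayed lower in diabetic marrow in each of 14 alternatives, and 6 had separate groups in 13 of them. Without diabetic replicate 2 all 7 did, Mavs included. Much of this was fixed in advance. The level filters, averaged sets (1 set per member), eBayes settings and replicate block cannot alter a member's change. Groups that do not overlap also stay apart, in the same direction, when an array is left out. The calls on Dhx58, Zbp1 and Adar held with median centring, averaged probe sets, quantile normalization, trend and robust eBayes, and a level filter that was left off or raised to the 60th percentile. With array weights, whose estimation stopped before convergence, 6 members, 25 pathway genes and 1878 genes in all passed, with Ddx58 at -0.58, Ifih1 at -0.86 and Eif2ak2 at -0.72. With the replicate block 0 members, 0 pathway genes and 2 genes in all passed in limma, while 6 members had an unadjusted p under 0.05, with Dhx58 at -0.81, Zbp1 at -0.97 and Adar at -0.49, and not every array correlated best with its own number. When 1 array was left out, 0 to 5 members, 0 to 3 pathway genes and 3 to 70 genes in all passed, and 6 members always had an unadjusted p under 0.05 in limma. Over those fits Ddx58 ran from -0.52 to -0.37, Ifih1 from -0.98 to -0.60, Dhx58 from -0.91 to -0.74, Zbp1 from -1.07 to -0.87, Eif2ak2 from -0.85 to -0.58 and Adar from -0.53 to -0.43. Without a diabetic array no member passed, in fits with fewer samples. Among other named genes, 3 with errors as large as their changes turned sign. Ifnl2 was -0.0018 after quantile normalization and lay between -0.026 and 0.072 in the fits lacking an array, below 0 without wild type replicate 2 or diabetic replicate 1 or 3. Asns ran from -0.013 to 0.49, below 0 without wild type replicate 1, and Atf3 from -0.019 to 0.40, below 0 without diabetic replicate 1. The alternatives for marker genes were added after seeing the data. The 3 arrays per group and the lack of a stated animal behind each limit all of these calls.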

Other observations

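Other marrow genes read as markers gave values that the report leaves out. Fn1, the matrix protein fibronectin and a monocyte marker here, was at 12.70, 12.35 and 12.23 in wild type and 13.08, 12.94 and 13.21 in diabetic marrow, a change of 0.65 ± 0.13 (SE; limma, adjusted p = 0.129). Cd4, the coreceptor of helper T cells that dendritic cells also carry, was at 9.21, 9.30 and 9.57 in wild type and 8.87, 8.83 and 8.79 in diabetic marrow, a change of -0.53 ± 0.09 (limma, adjusted p = 0.0974). Fn1 passed without wild type replicate 1, at 0.79 (limma, adjusted p = 0.0191), and Cd4 without wild type replicate 3, at -0.42 (limma, adjusted p = 0.0397). The groups of Fn1 and of Cd4 did not overlap, neither gene passed with all 6 arrays, and both were named after their values were seen. Cd4 was the only 1 of 6 T and NK cell genes tested with separate groups. Of these 6 genes, 5 were lower and 1 higher, with a median change of -0.06. Their list mean overlapped, from 9.07 to 9.35 in wild type and 8.91 to 9.43 in diabetic marrow.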
